A study of Homo sapiens with 72 samples.

Results

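The BCL2 family decides whether the mitochondrial outer membrane is kept intact or is opened during apoptosis, and the mRNAs of 8 of its members were followed here in melanoma cells: MCL1, BCL2L1, BCL2L11, BAX, BAK1, BID, BAD and BIK. They were taken by gene symbol from the 44659 gene names of the count table, in which each of the 8 symbols stood once. A375, a human melanoma line bought from ATCC, was the source of all 72 libraries, so every comparison refers to this line. RNA was taken from the cytoplasmic lysate and sequenced with QuantSeq, a method that reads the 3′ end of each polyadenylated transcript, so that CPM, the counts scaled to equal library totals, was not divided by transcript length. In the siRNA experiment the cells were reverse transfected for 42 h either with siCTU2, a pool of 2 siRNAs against CTU2 (a subunit of the enzyme that thiolates the wobble uridine of some tRNAs), or with siGL2, a control siRNA. In the medium experiment medium lacking glutamine (mQ) or holding it (pQ) was applied over the last 18 h. All cells then received the transcription inhibitor triptolide at 25 µM, alone (T) or together with the translation elongation inhibitor cycloheximide at 100 µg/ml (TCHX), and were harvested at 0, 3 and 5 h, with 3 replicates in each of the 24 groups. The study's methods describe cycloheximide given shortly before triptolide, so that TCHX cells had met it by 0 h. Nothing in the labels says that the replicates came from separate cultures, so each p measures the spread between these samples only. In RNA from bulk cells, fewer cells with a transcript and less of it in each cell cannot be told apart.

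MCL1 and BCL2L1 (which encodes BCL-XL) are anti-apoptotic members that hold the pro-apoptotic ones in check. BAX and BAK1 are the effectors that form pores in the mitochondrial outer membrane and release cytochrome c. BCL2L11 (BIM), BID, BAD and BIK are BH3-only proteins, which neutralise the anti-apoptotic members or activate the effectors. MCL1 is known for a short-lived protein and a short-lived mRNA, so its level falls early when transcription or translation is blocked.

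The 3′ untranslated regions (UTRs) of the family differed in ATTTA, the core of AU-rich elements that many unstable mRNAs carry. In the GENCODE annotation of GRCh38, the MCL1 gene lies on the minus strand at chr1:150560895-150579738, and its 3′ UTR of 2817 bases held 10 copies of ATTTA. BCL2L11, on the plus strand at chr2:111119378-111168444, had 8 copies in 4213 bases. BCL2L1 had 3, BID 2 and BIK 1, and BAX, BAK1 and BAD had none. The longer element TTATTTATT was found in none of the 8 on the mRNA strand, the only strand searched. Long UTRs nearly always contain ATTTA: 96.2% of UTRs as long as that of MCL1 and 98.4% of those as long as that of BCL2L11 held it. Per kilobase MCL1 had 3.55 copies, more than 79.0% of the 18175 UTRs searched, whose median was 1.67. BIK had 2.46 copies per kilobase, BCL2L1 2.01, BCL2L11 1.90 and BID 1.39, so the density of BCL2L11 was near the median. The windows of 30 bases below, at chr1:150576222-150576251 (minus strand) and chr2:111167086-111167115 (plus strand), each hold 2 copies, in capitals. Each was picked as the first window with the most copies in its UTR. Windows were looked for only in these 2 members, which had the least mRNA left 3 h after triptolide by the median over 12 pairs. The part of ATTTA in the decay was not tested.
MCL1: catttgacctaATTTAactggtgaaATTTA
BCL2L11: aatattgtatATTTAttttctgcttATTTA

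Both siRNAs of the siCTU2 pool are shown because 3 members carried a match to one of them. Their sense strands, from the study's list of oligonucleotides, are given with bases 12 to 18 in capitals, the 7 letters that a target site for the seed of the guide strand would have.
siCTU2#1: ctatcaagctcATGACCAa
siCTU2#2: gcgtgaacatgAAGGACTt
The same 7 letters stood in the 3′ UTR of BCL2L1 at chr20:31665180-31665209 (minus strand), of BAK1 at chr6:33572849-33572878 (minus strand) and of BIK at chr22:43129332-43129361 (plus strand). None of the other 5 members held either heptamer in its 3′ UTR. Among UTRs of the same length the matching heptamer was found in 7.88% for BCL2L1, 9.91% for BAK1 and 3.45% for BIK. Both heptamers were searched in all 8 members, and the other one was found in 10.8, 7.59 and 3.95% of these UTRs. Over all UTRs the shares were 9.11% for siCTU2#1 and 11.7% for siCTU2#2. A match of 7 letters is a description of the sequence, and its part in the levels below was not tested.
BCL2L1: ccctggctcccATGACCAtactgagggacc
BAK1: ctaagtgggagAAGGACTatcaacaccact
BIK: gccccacccccATGACCActgccctggagg

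The libraries held 5987692 to 15534331 counts. Over all 72 libraries MCL1 had 38 to 4503 counts (median 1141), and the medians of the other members but BIK lay between 90 counts (BCL2L1) and 358 counts (BID). BIK had 0 to 44 counts with a median of 2.5 and was at 0 in 21 libraries. A count of 0 allowed up to 0.214 to 0.457 CPM there, a limit that covers counting error only, and BIK was tested in no comparison within a condition. CTU2 had 1.01 to 2.95 CPM in the siCTU2 libraries of the T arm at 0 h and 21.1 to 24.2 CPM in those of siGL2. Of the melanocyte lineage markers, MITF, SOX10 and S100B had 109.7 to 424 CPM at 0 h, MLANA and TYR had at most 0.866 and 1.02 CPM, and each of the 6 markers of keratinocytes, fibroblasts, endothelium and leukocytes had at most 0.99 CPM. 3 libraries, all of replicate 3 (mQ T at 5 h, pQ TCHX at 0 h and siCTU2 TCHX at 5 h), stood apart with 19896 to 20364 detected genes against 15507 to 17495 in the rest. In the library labelled siCTU2 TCHX at 5 h replicate 3, CTU2 had 10.4 CPM, against 0.133 to 2.95 CPM in the other 17 siCTU2 libraries. Whether these libraries were mixed or exchanged with others was not tested, and each is named by its label. The cycloheximide effects are given with and without them.

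MCL1 had the most counts of the 8 members at 0 h in every condition. In the T arm its level was 339.9, 378 and 337 CPM in the 3 siCTU2 libraries and 186, 199.7 and 175 CPM in the 3 siGL2 libraries. The groups did not overlap, and MCL1 mRNA was 0.91 ± 0.08 higher on the log2 scale (SE, n = 3 per group, edgeR adjusted p = 3.56e-08) after CTU2 depletion. BAK1, the effector that resides on mitochondria in healthy cells, went the other way, with 8.01, 6.82 and 7.78 CPM in siCTU2 against 23.7, 21.0 and 20.9 CPM in siGL2. Its fall of 1.54 ± 0.17 on the log2 scale (edgeR adjusted p = 1.12e-06) was also without overlap. BCL2L1 was the third member called, with 4.43, 5.63 and 5.13 CPM against 11.6, 10.4 and 6.42 CPM and a log2 difference of -0.90 ± 0.26 (edgeR adjusted p = 0.0107). The siGL2 libraries of BCL2L1 spread widely. Without siGL2 replicate 1 the difference was -0.74 with an edgeR adjusted p of 0.0673, and in the TCHX arm at 0 h it was -0.38 with 0.157.

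Among all 12292 genes tested at 0 h between siCTU2 and siGL2, 36% were called, and the 3 of 7 members called (1 higher, 2 lower) stand against that share. The median log2 difference of the 7 was -0.12, against 0.00 over all genes. BAX, the effector that moves from the cytosol to mitochondria on activation, had 33.9 ± 3.42 CPM in siCTU2 and 31.6 ± 4.08 CPM in siGL2 (SD, n = 3). The 3 BH3-only members were close as well: BCL2L11 had 18.3 ± 3.39 and 20.0 ± 2.59 CPM, BID 36.2 ± 3.00 and 36.5 ± 2.35 CPM, and BAD 18.7 ± 3.50 and 23.4 ± 2.70 CPM. Their adjusted p-values ran from 0.124 (BAD) to 0.929 (BID). The libraries of the TCHX arm, harvested at the same 0 h, gave 5 called members, where 4651 of 12507 genes were called. There MCL1 was 0.71 higher and BAK1 1.20 lower, which kept both calls, while BAX was 0.72 higher, BCL2L11 was at -0.51 and BAD at -0.40 on the log2 scale.

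Glutamine withdrawal was followed by a call on 1 of the 7 members, against 24.8% of 12374 genes. BID, the BH3-only protein that caspase 8 cleaves, had 28.0, 23.1 and 28.8 CPM in mQ and 40.6, 47.2 and 37.3 CPM in pQ. The groups did not overlap, with a log2 difference of -0.60 ± 0.15 (SE, edgeR adjusted p = 0.0124). Without pQ replicate 2 it was -0.50 (edgeR adjusted p = 0.0745), and in the TCHX arm -0.39 (edgeR adjusted p = 0.181). In that arm it was -0.22 (edgeR adjusted p = 0.317) without the pQ library that stood apart. BCL2L1 and BAX had the largest positive differences, 0.56 ± 0.21 and 0.48 ± 0.20 on the log2 scale, and did not pass (edgeR adjusted p = 0.0683 and 0.0903). Both passed without mQ replicate 3 (0.69 and 0.63, edgeR adjusted p = 0.0323 and 0.0251), and BAX also without pQ replicate 3 (0.70, edgeR adjusted p = 0.0338). The median of the 7 was 0.20, against 0.01 over all genes.

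The MCL1 level in medium without glutamine depended on the library. In the T arm it was 247, 184 and 354 CPM in mQ and 228, 246 and 235 CPM in pQ, so that the mQ libraries lay on both sides of the pQ ones, and the log2 difference was 0.20 ± 0.18 (edgeR adjusted p = 0.454). Without mQ replicate 2 it was 0.40 (edgeR adjusted p = 0.0102) and without mQ replicate 3 it was -0.09. In the TCHX arm at 0 h MCL1 had 301, 293 and 388 CPM in mQ against 209, 241 and 152 CPM in pQ, with a log2 difference of 0.72 (edgeR adjusted p = 0.0298), or 0.57 (edgeR adjusted p = 0.00072) without the pQ library that stood apart.

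**Figure D1:**
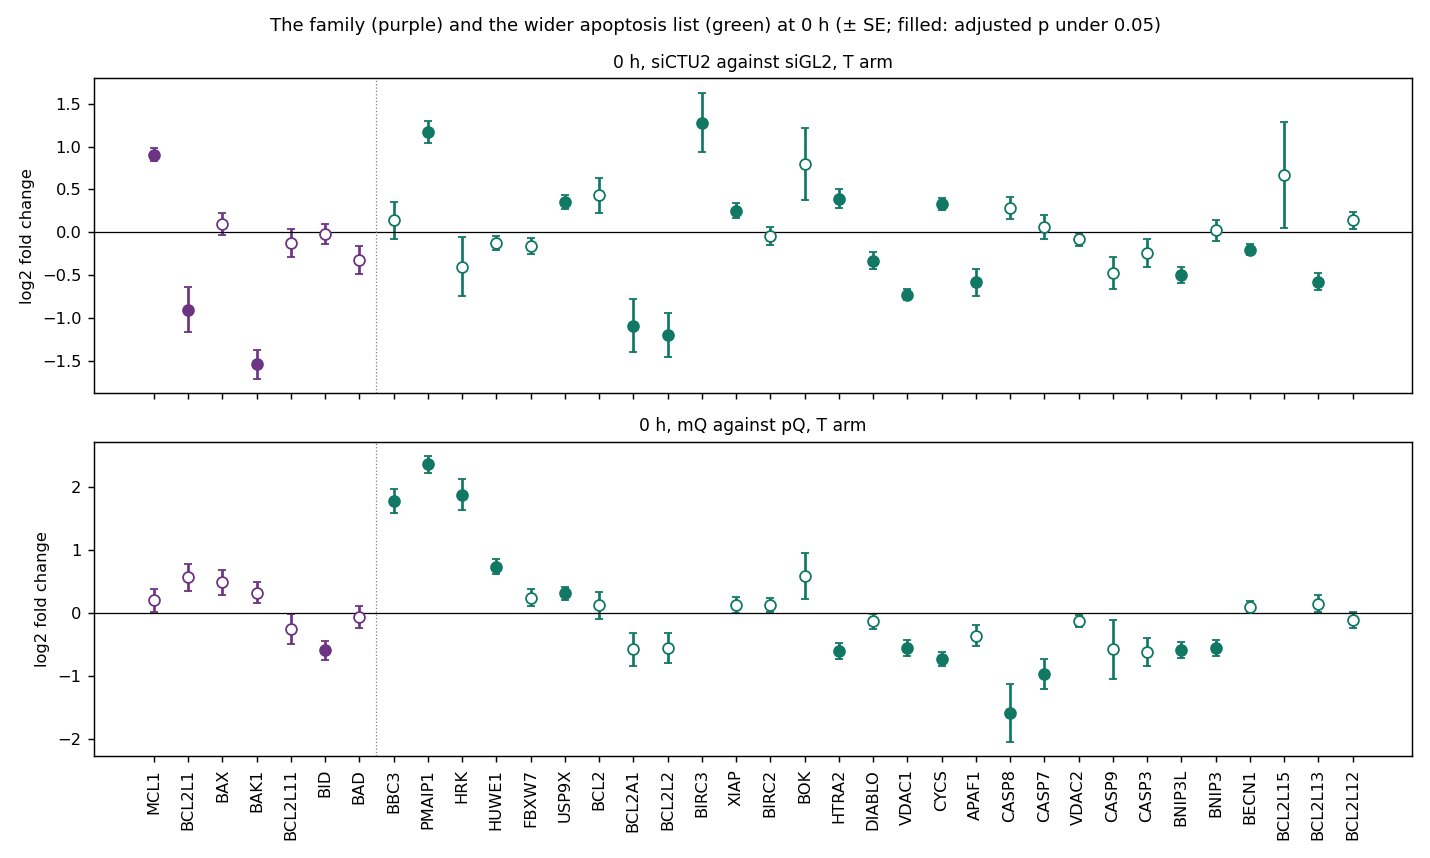
Log2 differences at 0 h in the T arm for the 7 members tested, siCTU2 against siGL2 and mQ against pQ, with bars of 1 SE from edgeR. MCL1 at 0.91 and BAK1 at -1.54 lie farthest from 0 in the siRNA comparison, and BID at -0.60 is the 1 member called in the medium comparison.

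The wider mitochondrial pathway, a list of 32 further genes, moved in both directions at 0 h. After CTU2 depletion 6 of the 29 genes tested rose and 8 fell, with a median log2 difference of -0.04, beside 36% of all genes called and a median of 0.00. PMAIP1, which encodes NOXA, a BH3-only protein that binds MCL1, was 1.17 higher (48.3 ± 5.97 against 21.4 ± 1.98 CPM, SD). BIRC3, an inhibitor of apoptosis, was 1.28 higher, and the anti-apoptotic BCL2L2 and BCL2A1 had log2 differences of -1.20 and -1.09. VDAC1, a channel of the mitochondrial outer membrane, and APAF1, the scaffold of the apoptosome, were at -0.73 and -0.59. Without glutamine 5 of 27 rose and 7 fell, with a median of -0.12, beside 24.8% of all genes called and a median of 0.01. The BH3-only PMAIP1, HRK and BBC3 (PUMA) stood out by size, at 2.36 (105 ± 12.8 against 21.3 ± 1.43 CPM), 1.88 (26.2 ± 6.41 against 7.31 ± 2.04 CPM) and 1.78 (55.2 ± 9.04 against 16.6 ± 3.89 CPM). HUWE1, a ubiquitin ligase of MCL1, was at 0.73, and the initiator caspase CASP8 was at -1.59. CASP8 spread widely, with 8.04, 1.52 and 12.3 CPM in mQ against 28.2, 20.3 and 18.6 CPM in pQ.

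Triptolide then showed how quickly each mRNA was lost. Values at 3 and 5 h were scaled on genes taken as stable because their CPM rose at least 1.1-fold by 3 or 5 h in every replicate, and are given as percent of the 0 h library with the same number. Of MCL1, 20.3, 28.1 and 23.1% remained at 3 h in siCTU2, and 7.91, 13.1 and 7.22% in siGL2. In the medium experiment 8.10, 10.3 and 5.12% remained in mQ and 7.92, 11.7 and 6.99% in pQ. All 12 pairs of libraries were thus below 30% and the siCTU2 values lay above those of the other 3 conditions. The matching half-lives, if loss followed a single exponential, were 87.3 ± 10.2 min in siCTU2, 52.7 ± 7.56 min in siGL2, 48.9 ± 6.52 min in mQ and 51.4 ± 5.94 min in pQ (SD, n = 3). At 5 h MCL1 was at 1.48 to 10.9% in 11 of the pairs. It was at 23.1% in the mQ library that stood apart, where the other 2 mQ pairs had 2.33 and 3.88%.

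**Figure D2:**
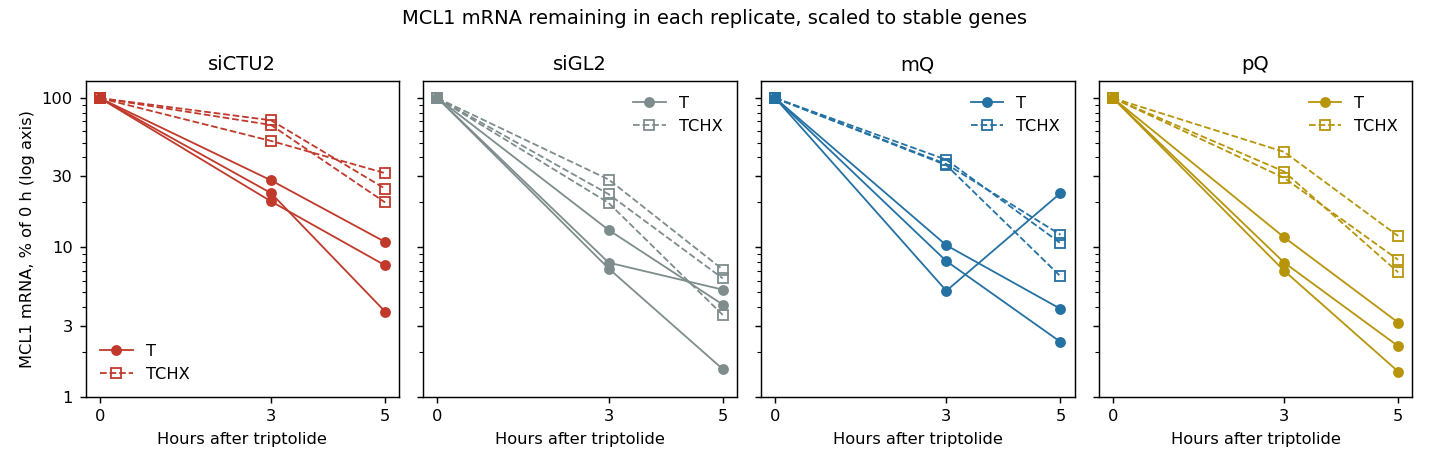
MCL1 as percent of the 0 h level (log axis) at 0, 3 and 5 h after triptolide, with 1 line for each replicate of each condition, without (T) and with cycloheximide (TCHX). In the T arm the 3 h values lie between 5.12 and 28.1%, and in the TCHX arm between 19.9 and 71.0%.

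MCL1 mRNA was lost faster than that of the other members in the same libraries, BIK aside, which had too few counts to compare. Its log2 change over 3 h was 2.45 lower than the median of the other 7 members, with an SD of 0.75 and a range of -3.50 to -1.21 over 12 pairs, on log2(CPM + 0.5). It was lower in 12 of 12 pairs. Against each single member, too, MCL1 was lower in 12 of 12 pairs, with mean differences from -1.86 (BCL2L11) to -2.84 (BAD). For BIK this says nothing about its loss, because it had only 0.193 to 0.523 CPM on average at 0 h. The added 0.5 then limits how far its value can fall. In siGL2 BIK went from 4, 4 and 5 counts at 0 h to 0 counts at 3 h. BIK is also among the 7 members behind the median. The differences between MCL1 and the others lie within a library, so they do not depend on how libraries were scaled to each other. By condition the difference from the median was -1.39 ± 0.16 in siCTU2, -2.85 ± 0.38 in siGL2, -2.71 ± 0.77 in mQ and -2.84 ± 0.31 in pQ (SD, n = 3). With cycloheximide it was -0.90 over the 12 pairs, and lower in 11 of them. Since the members were chosen with results of these data known, this contrast is a description with no p.

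By the median over the 12 pairs, 39.8% at 3 h, BCL2L11 was the next least stable member. At 3 h 40.0, 64.7 and 40.7% remained in siCTU2, 44, 57.3 and 33.8% in siGL2, 26.5, 45.6 and 39.0% in mQ, and 39.6, 30.4 and 25.1% in pQ. In 10 of 12 pairs less than 50% remained, and the conditions overlapped. Half-lives were 3.12 ± 1.43, 2.73 ± 0.92, 2.14 ± 0.55 and 1.83 ± 0.38 h in the same order. MCL1 and BCL2L11 passed the test in all 4 conditions: the log2 change over 3 h was -2.06 ± 0.29, -3.38 ± 0.42, -3.80 ± 0.71 and -3.48 ± 0.31 for MCL1, and -1.10, -1.17, -1.48 and -1.66 for BCL2L11. MCL1 kept its call without any 1 replicate, while BCL2L11 lost it without replicate 1 in siCTU2 (-0.99, edgeR adjusted p = 0.0794) and in mQ (-1.26, edgeR adjusted p = 0.0772).

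By the median over 12 pairs the effectors and the remaining members lost less than BCL2L11. In siCTU2, however, less BAK1 than BCL2L11 remained at 3 h, at 43.7 ± 8.91% against 48.5 ± 14.1% (SD, n = 3). BAK1 had a median of 51.8% remaining (31.1 to 91.8%) over the 12 pairs, and its fall passed the test in siCTU2 (-1.21 on the log2 scale), mQ (-1.33) and pQ (-0.72) but not in siGL2 (-0.45, edgeR adjusted p = 0.146). BCL2L1 had a median of 56.6% with the widest range, 30.6 to 171%, and was called in mQ alone (-1.23, edgeR adjusted p = 0.0319). BID, BAX and BAD had medians of 69.3, 77.5 and 79.7%. BID was called in pQ (-0.69), and BAX (-1.13) and BAD (-0.62) in mQ. Leaving out replicates ended many of these calls. BAK1 lost its call without replicate 1 in siCTU2 (-1.23, edgeR adjusted p = 0.0606), without replicate 2 in mQ (-1.13, 0.105) and without replicate 1 or 2 in pQ (-0.78 and -0.77, 0.106 and 0.125). In mQ BCL2L1, BAX and BAD lost theirs without replicate 1 (-1.06, -0.95 and -0.70, edgeR adjusted p = 0.118, 0.0749 and 0.112) and without replicate 2 (-1.16, -0.94 and -0.60, edgeR adjusted p = 0.173, 0.13 and 0.186). BID in pQ was at -0.82 without replicate 1 and at -0.57 without replicate 2 (edgeR adjusted p = 0.0951 and 0.237). BCL2L1 in siGL2 was called only without replicate 3 (-0.80, edgeR adjusted p = 0.0172). Counted by condition, 3 of 7 members fell in siCTU2, where 36% of 13638 genes were called lower, 2 in siGL2 (28.6% of 13161), 6 in mQ (55.4% of 13442) and 4 in pQ (55.2% of 13347). Their median log2 changes were -0.99, -0.32, -1.23 and -0.70, against -0.55, -0.47, -0.71 and -0.69 over all genes.

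In the wider pathway list, 13 of 30 genes fell over 3 h in siCTU2, 7 of 29 in siGL2, 15 of 29 in mQ and 15 of 29 in pQ, and none rose. Over all genes 36, 28.6, 55.4 and 55.2% were called lower. BBC3 fell most, by log2 changes of -2.66, -2.91, -4.28 and -3.25 in that order. HRK (-1.24, -1.13, -1.76 and -1.11) and FBXW7, part of a ubiquitin ligase that targets MCL1 (-1.19, -1.08, -1.34 and -1.40), fell in all 4 conditions as well. PMAIP1 was among the largest falls in siGL2 (-1.10), mQ (-1.64) and pQ (-1.43). With cycloheximide 6 of 30 were higher in siCTU2, 2 of 29 in mQ, 2 of 29 in pQ and 0 of 29 in siGL2 by edgeR, where 5 had an unadjusted p under 0.05. The shares of all genes called higher were 21, 5.12, 12.3 and 12.1%. Without the libraries that stood apart 5 of 30 genes of the list were higher in siCTU2, 8 of 30 in mQ and 3 of 29 in pQ, beside 17.2, 21.1 and 12.4% of all genes. BBC3 was 2.23 higher in siCTU2, 2.05 in mQ and 2.38 in pQ, and PMAIP1 was 1.14 higher in mQ and 0.86 in pQ.

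The changes of the members are relative to the stable genes. With TMM scaling, which sets the typical gene to no change, the median of all genes moved to between -0.0022 and 0.014, and MCL1 still fell in all 4 conditions (-1.52, -2.91, -3.05 and -2.80 on the log2 scale). BCL2L11 then kept its call in siGL2 and pQ only, and BAK1 in none. BAD in mQ and BID in pQ came to 0.10 and 0.01 on that scale, so their direction depended on the scaling.

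The MCL1 difference in decay after CTU2 depletion did not pass the test of the difference across all genes. The change over 3 h was 1.32 ± 0.50 higher on the log2 scale in siCTU2 than in siGL2, with an unadjusted p of 0.0132 in edgeR and an adjusted p of 1. edgeR called 0 of 14259 genes for this difference (414 at an unadjusted p under 0.05) and DESeq2 called 8. For BAK1 the log2 difference in decay was -0.76 (unadjusted p = 0.0424 in edgeR, adjusted p = 1). Between mQ and pQ edgeR called 0 of 14177 genes for decay (356 unadjusted, DESeq2 2), and none of the 8 members was among the unadjusted ones. Without replicate 3 the BAX fall was 1.25 larger in mQ than in pQ (log2 difference -1.25, edgeR adjusted p = 0.0299).

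Cycloheximide freezes ribosomes on the mRNA, and the study takes the mRNA kept by it as a measure of loss that depends on translation. Other effects of the drug on an mRNA cannot be told apart from this here. Of MCL1, 71.0, 66.1 and 51.7% remained at 3 h in siCTU2 with cycloheximide, 22.7, 28.5 and 19.9% in siGL2, 38.6, 36.1 and 35.5% in mQ and 32.2, 29.2 and 43.6% in pQ. Within each condition, every 3 h value with cycloheximide was above every 3 h value without it. At 5 h the arms overlapped in siGL2, and in mQ through the library that stood apart: with cycloheximide 24.7, 20.0 and 31.4% remained in siCTU2 (the last in the library that stood apart), 6.20, 7.11 and 3.53% in siGL2, 10.7, 12.2 and 6.41% in mQ and 6.81, 8.26 and 11.9% in pQ, against 1.53 to 5.22% in siGL2 and 2.33 to 23.1% in mQ without it. Half-lives over the first 3 h were 285 ± 88.7 min, 86.9 ± 11.3 min, 125 ± 5.68 min and 121 ± 26.1 min (SD, n = 3), the last including the 0 h library of pQ that stood apart, without which the other 2 pairs gave 101 and 110.2 min. Over 5 h they were 153 ± 25.4, 71.9 ± 8.62, 89.1 ± 12 and 86.2 ± 10.5 min, shorter in each condition than over 3 h. JUN, a short-lived mRNA, went the same way, with 1.66 to 8.27% remaining without and 15.2 to 61.3% with cycloheximide over 12 pairs each.

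Tested over 3 and 5 h together, MCL1 was 1.32 ± 0.20 higher with cycloheximide in siCTU2 (log2 scale, SE, edgeR adjusted p = 9.46e-05) and 1.62 ± 0.21 higher in pQ (edgeR adjusted p = 2.88e-05). Without the library that stood apart these were 1.23 (edgeR adjusted p = 0.000321) and 1.62 (edgeR adjusted p = 1.41e-05). In siGL2 it was 1.05 ± 0.28 higher (edgeR adjusted p = 0.0185), a call lost without siGL2 replicate 1 (1.16, edgeR adjusted p = 0.208) or replicate 2 (1.07, edgeR adjusted p = 0.144), or at 3 h alone (edgeR adjusted p = 0.0661). In mQ the difference was 1.30 ± 0.46 and did not pass (edgeR adjusted p = 0.116). Without the mQ library that stood apart it was 2.52 and passed (edgeR adjusted p = 1.51e-08). BAK1 in mQ went from 0.64 to 0.92 without that library and then passed too (edgeR adjusted p = 0.00112).

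**Figure D3:**
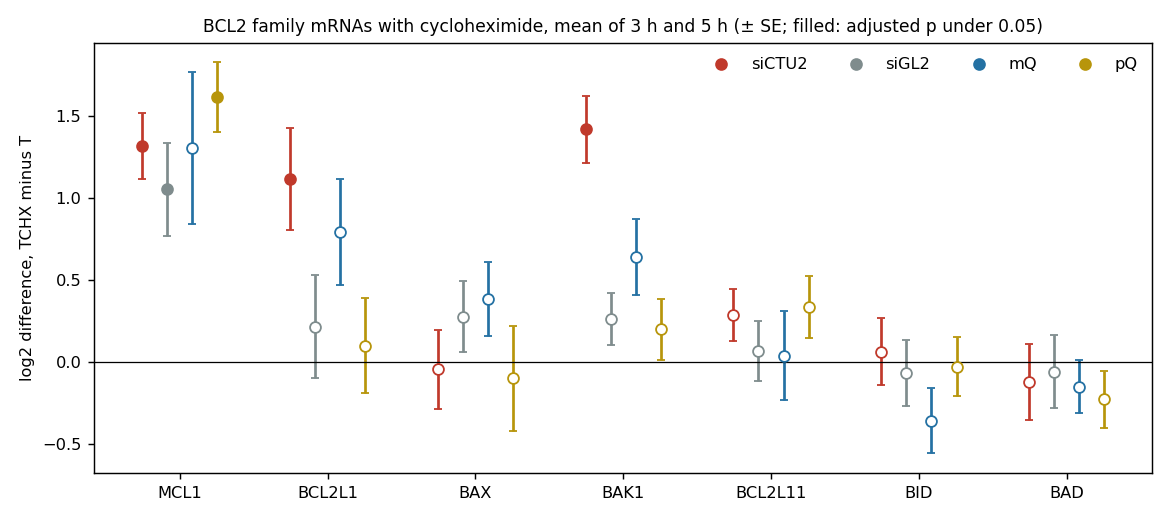
Log2 difference between TCHX and T over 3 and 5 h for the 7 members tested in siCTU2, siGL2, mQ and pQ, with bars of 1 SE from edgeR. MCL1 lies between 1.05 and 1.62 in all conditions, and BAK1 at 1.42 in siCTU2 and at 0.26, 0.64 and 0.20 in siGL2, mQ and pQ.

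BAK1 and BCL2L1 were the other members higher with cycloheximide, both in siCTU2, among the calls made with all libraries. BAK1 was 1.42 ± 0.20 higher there (edgeR adjusted p = 5.07e-05), against 0.26 ± 0.16 in siGL2, and 1.22 higher without the library that stood apart (edgeR adjusted p = 5.51e-05). At 3 h alone it was 0.92 higher in siCTU2, and 1.05 higher with the difference between the arms at 0 h subtracted, neither of which passed (edgeR adjusted p = 0.0842 and 0.0683). The BAK1 effect in siCTU2 minus that in siGL2 passed its own test, at 1.16 ± 0.25 (edgeR adjusted p = 0.0299). It did not pass without the siCTU2 library that stood apart (0.95, edgeR adjusted p = 0.0667), without replicate 1 (1.19, edgeR adjusted p = 0.462), without replicate 2 (1.06, edgeR adjusted p = 0.383) or with TMM scaling (0.93, edgeR adjusted p = 0.330). For BCL2L1 in siCTU2 the arms already differed at 0 h, with 8.20 ± 1.34 CPM in TCHX and 5.06 ± 0.60 CPM in T (SD, n = 3). As percent of 0 h, 63.5 ± 10.7% remained at 3 h with and 50.1 ± 6.12% without cycloheximide. Over 3 and 5 h together BCL2L1 was 1.12 ± 0.31 higher in siCTU2 (edgeR adjusted p = 0.0145), with no 0 h difference subtracted. This became 0.80 without the library that stood apart (edgeR adjusted p = 0.0592). It was 1.05 without replicate 1 (edgeR adjusted p = 0.0647) and 1.15 without replicate 2 (edgeR adjusted p = 0.119). These counts were 3 of 7 members in siCTU2 (21% of genes called higher), 1 in siGL2 (12.1%), 1 in pQ (12.3%) and 0 in mQ (5.12%), where 3 members had an unadjusted p under 0.05 and DESeq2 called 0 as well. Without the libraries that stood apart they were 2 of 7 in siCTU2 (17.2%), 2 in mQ (21.1%) and 1 in pQ (12.4%). BCL2L11, BAX, BID and BAD were called in no condition. The medians of the 7 members were 0.29, 0.22, 0.10 and 0.38 in siCTU2, siGL2, pQ and mQ, against 0.22, 0.05, 0.06 and 0.05 over all genes.

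For all genes, 0.379% of 14259 were called for a difference in the cycloheximide effect between siCTU2 and siGL2, BAK1 being the 1 member among them. For MCL1 this difference was 0.27 ± 0.36 (SE, unadjusted p = 0.466 in edgeR, adjusted p = 0.929). Between mQ and pQ edgeR called 0 of 14177 (525 at an unadjusted p under 0.05; DESeq2 2) and no member had an unadjusted p under 0.05. For MCL1 the effect in mQ minus that in pQ was -0.31, but 1.05 without replicate 3 (edgeR adjusted p = 0.00834) and 0.90 without the libraries that stood apart (edgeR adjusted p = 0.133).

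The study's measure of translation-dependent decay, the TDD index, is the gain with cycloheximide divided by the 0 h level. For MCL1 it was 0.314 ± 0.0759 at 3 h in siCTU2 and 0.151 ± 0.0159 in siGL2, and 0.151 ± 0.0891 and 0.0219 ± 0.0111 at 5 h (SD, n = 3). The difference over both times was 0.146 in a linear model with replicate and time (unadjusted p = 0.00554, adjusted p = 0.472). BAK1 had 0.335 ± 0.0243 and 0.0945 ± 0.182 at 3 h and 0.791 ± 0.361 and 0.160 ± 0.170 at 5 h, a difference of 0.436 (unadjusted p = 0.00684, adjusted p = 0.491). These 2 of 7 members were called at the study's unadjusted threshold, against 8.16% of 12288 genes, none of which passed after adjustment. Without replicate 3, which holds the library that stood apart, the differences were 0.139 for MCL1 and 0.425 for BAK1 and stayed called in the linear model. MCL1 was at 0.135 without replicate 1 (unadjusted p = 0.0597 in the linear model) and BAK1 at 0.392 without replicate 2 (unadjusted p = 0.0874), and each then missed the threshold. In the medium experiment MCL1 had a TDD index of 0.352 ± 0.0382 in mQ and 0.207 ± 0.0309 in pQ at 3 h, and 0.0212 ± 0.159 and 0.0530 ± 0.0123 at 5 h, with a difference of 0.0569 over both (unadjusted p = 0.341). The mQ mean at 5 h includes -0.162 from the library that stood apart, and the other 2 mQ values were 0.0990 and 0.127, above the 0.0425 to 0.0666 of pQ. Without replicate 3 the difference was 0.121 in the linear model (unadjusted p = 0.0190, adjusted p = 0.314), which the unadjusted threshold calls. No member was called there with all replicates, against 4.79% of 12428 genes. The p-values of the linear model treat the 2 times of a replicate as separate values.

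Over the means of the 24 groups, the genes whose log2 level followed that of MCL1 most closely were JUNB, DDIT4, ADO, DIPK2A and PCF11, with Pearson's r of 0.981 to 0.976 among 9779 genes. Of the other members BCL2L11 came closest (r = 0.921), then BID (0.733), BAK1 (0.636), BAD (0.612), BCL2L1 (0.399) and BAX (0.0919). The groups share the fall after triptolide and the scaling, so these r are descriptions.

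At 5 h the members differed between replicates as well as between conditions. BAX had 23.0 to 78.8 CPM in the 16 libraries of replicates 1 and 2, and 73.4 to 143 CPM in the 6 of replicate 3 that did not stand apart. BID was lower in those 6, at 15.0 to 23.9 CPM against 26.7 to 41.5 CPM. BCL2L1 reached 43.7 CPM in replicate 3 and 11.5 CPM in the others. BCL2L11 had 4.95 to 8.27 CPM in the 6 libraries, within the 4.64 to 9.78 CPM of the 16. The part of this spread in the 5 h results was not tested.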

How the data were processed

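RNA of 72 A375 libraries was measured by QuantSeq 3′ mRNA sequencing. The authors deposited 1 table of raw read counts per gene; their notes name fastp 0.20.1, HISAT2 2.2.1 and HTSeq 0.13.5 and the build GRCh38. ERCC spike-ins were added to the RNA per the labels and were not used here. Groups came from the labels. CPM were computed from these counts by library total (5987692 to 15534331). At 0 h libraries were scaled with TMM; at 3 and 5 h, as in the study, by the median ratio over stable genes (CPM above 0.2 at 0 h in every library, at least 1.1-fold higher at 3 or 5 h in each replicate; 198 genes in the siRNA and 82 in the medium experiment, no member among them). Counts were tested with edgeR 4.0.16 (quasi-likelihood, filterByExpr, Benjamini-Hochberg over all genes tested, threshold 0.05) in R 4.3.3, within 1 condition for decay (3 h minus 0 h) and cycloheximide (mean of TCHX minus T at 3 and 5 h), and over 36 libraries for differences between conditions. SE was the log2 difference divided by the square root of F. The TDD index followed the study's linear model, on genes with a mean scaled 0 h count of at least 10. The exact test planned for MCL1 against the other members gave p-values that are not reported. Alternatives were DESeq2 1.42.0, other scaling, no filter, a replicate block, other times and arms, and leaving out replicates or the 3 libraries that stood apart, 4 of them added after seeing the data. Scripts were tested on simulated data. The 8 members and the list of 32 pathway genes were chosen with earlier results of these data known. All members are named, and of the wider list at most the 6 largest changes called in a comparison. Outside this rule, BCL2, BCL2L10, BOK and BCL2L12 are named under other observations. A gene that this rule would name is not reported here. UTRs and coordinates came from GENCODE on GRCh38, and siRNA sequences from the study's supplementary list.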

Additional observations from a re-analysis of the deposited data

Results flagged for a closer look

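For 2 members an effect measured the same way differed between siCTU2 and siGL2 by a test of the difference itself, MCL1 only in the unadjusted test of the TDD index. In edgeR the difference in the cycloheximide effect on MCL1 was 0.27 ± 0.36 on the log2 scale (SE) and did not pass (unadjusted p = 0.466, adjusted p = 0.929). The cycloheximide effect on BAK1 was 1.16 larger in siCTU2 on the log2 scale (SE 0.25, edgeR adjusted p = 0.0299), with BAK1 higher with cycloheximide by 1.42 in siCTU2 and 0.26 in siGL2. It was 0.95 (edgeR adjusted p = 0.0667) without the library that stood apart, and the call was also lost without replicate 1, without replicate 2 and with TMM scaling. The TDD index of BAK1 differed by 0.436 (unadjusted p = 0.00684) and that of MCL1 by 0.146 (unadjusted p = 0.00554), neither of which passed after adjustment over all genes (adjusted p = 0.491 and 0.472). The 3 flagged results share libraries and are not independent of each other. BAK1 also had fewer counts in siCTU2, at 7.54 CPM against 21.9 CPM at 0 h.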

How the results depend on the processing

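Among the counts of called members and the MCL1 contrast under alternatives, 116 were rated as unchanged and 47 as moved. A count was rated as unchanged within 1.5 times the reported count. The MCL1 contrast was rated by its direction and side of the threshold, not by its size. It stayed negative under every alternative but ranged from -3.85 to -0.90 on the log2 scale. Of the single members' results 913 kept their direction and side of the threshold, 63 lost and 36 gained a call, and 85 changed sign, of which 3 were called before or after the change: BAD in mQ and BID in pQ with TMM over 3 h, and the MCL1 cycloheximide difference between mQ and pQ without replicate 3. The causes were not tested. The 3 members called at 0 h in siCTU2 against siGL2 became 5 in the TCHX arm, and 1 in mQ against pQ became 2 with no filter. Over all genes 4429 calls of 12292 became 4651 of 12507, and 3071 of 12374 became 3494 of 20418. For decay, the 3 called in siCTU2 became 1 with TMM, 0 in the TCHX arm and 5 at 5 h (with or without the library that stood apart) or with genes stable at both times. Over all 13638 genes 5069 calls became 1280, 517, 8888 (9143 of 14027 without that library) and 8210 in the same order. The 2 in siGL2 became 5 with genes stable at both times and 4 at 5 h, where 3904 calls over all 13161 genes became 8375 and 6387. The 6 in mQ became 1 with TMM, 3 at 5 h and 1 in the TCHX arm, and the 4 in pQ became 2 with TMM and in the TCHX arm. Over all genes 7599 calls of 13442 became 981, 6087 and 4984 in mQ, and 7510 of 13347 became 1243 with TMM in pQ. For cycloheximide, 3 in siCTU2 became 1 at 3 h alone or with the 0 h difference subtracted, 1 in siGL2 became 0 at 3 h or 5 h alone, with the 0 h difference subtracted or with genes stable at both times, and 0 in mQ became 3 with no filter, 2 without the library that stood apart and 1 with the replicate block. In the same order 2881 calls over all genes became 590 and 1177 in siCTU2, and 1670 became 461, 1313, 506 and 1110 in siGL2. Those in mQ went from 704 to 1548, 2916 and 1009. The 1 difference in cycloheximide became 0 with TMM or without the libraries that stood apart, and 0 changed TDD indices between mQ and pQ became 1 with TMM or with each arm divided by its own 0 h library. Over all genes TMM moved the 54 differences to 32, and 595 changed TDD indices became 816 and 2812. Leaving out replicates gave 2 to 3 members at 0 h for siCTU2 and 0 to 3 for mQ. For decay it gave 1 to 3 (siCTU2), 2 to 3 (siGL2), 2 to 6 (mQ) and 2 to 4 (pQ), and for cycloheximide 2 to 3, 0 to 1, 0 to 2 and 1 to 1. For differences it gave 0 to 0 (decay, siRNA), 0 to 1 (cycloheximide, siRNA), 0 to 1 and 0 to 1 (medium), for the TDD index 1 to 2 and 0 to 1, and for MCL1 against the median of the others -2.66 to -2.28. Genes stable at both times numbered 3 in the medium experiment, so that alternative was not run there. Over all genes, TMM changed the split of higher and lower calls for decay from 165 and 4904 to 216 and 1064 (siCTU2), 138 and 3766 to 173 and 1086 (siGL2), 148 and 7451 to 186 and 795 (mQ) and 141 and 7369 to 189 and 1054 (pQ). For cycloheximide it went from 2858 and 23 to 1829 and 552, from 1597 and 73 to 1379 and 349, from 688 and 16 to 1006 and 187, and from 1640 and 61 to 1395 and 223. For the TDD index it went from 894 and 109 to 588 and 207 (siRNA) and from 433 and 162 to 405 and 411 (medium). Alternatives moved the decay totals of 5069, 3904, 7599 and 7510 genes to as few as 517, 1259, 981 and 1243, and the cycloheximide totals of 2881, 1670, 704 and 1701 to as few as 590, 461, 1 and 380. At the other end the decay totals reached 9143, 8375, 7873 and 9340, and the cycloheximide totals 3296, 2029, 2916 and 2177, the third without the library that stood apart (3286 without replicate 3). Same-numbered libraries did not all deviate together at 0 h, where the pairing needs an r above 0.1 in every pair: r was 0.0836, 0.174 and 0.262 (siRNA) and 0.112, -0.145 and -0.138 (medium). Within conditions the median r over pairs of groups for numbers 1 to 3 was 0.155, 0.198 and 0.201 in siCTU2, 0.122, 0.255 and 0.340 in siGL2, 0.252, 0.0952 and 0.206 in mQ, and 0.177, 0.248 and 0.401 in pQ, a hint of pairing. In the column names all libraries of a replicate number share a code, across conditions and arms. The labels do not say what this code stands for. The replicate block moved the 0 h calls over all genes from 4429 to 5101 (siRNA) and from 3071 to 2463 (medium). With the replicate block the counts of members called stayed at 3 and 1 at 0 h, and only that for cycloheximide in mQ changed. Depth limited BIK, with a median of 2.5 counts, and BAK1 and BCL2L1 in siCTU2. BCL2L1 had 42 to 66 counts in the T arm of siCTU2 at 0 h, and BAK1 74 to 100.

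Values that changed sign are on the log2 scale or, for the TDD index, in units of the 0 h level. With TMM, these were, for decay, BAX, BID and BAD at 0.52, 0.012 and 0.52 in siCTU2, BCL2L1, BAX, BAK1, BID and BAD at 0.21, 0.17, 0.024, 0.19 and 0.16 in siGL2, BID and BAD at 0.37 and 0.098 in mQ, BAX, BID and BAD at 0.51, 0.0088 and 0.35 in pQ, and for cycloheximide BID at -0.12 in siCTU2, BCL2L11 at -0.032 in siGL2, BCL2L11 at -0.030 in mQ, BCL2L1 at -0.024 in pQ. Over 5 h, for decay, they were BAX at 0.29 in siCTU2, BCL2L1 and BAX at 0.061 and 0.031 in siGL2, BID at 0.062 in mQ, BCL2L1 and BAX at 0.057 and 0.44 in pQ. Over 5 h without the library that stood apart, for decay, they were BAX at 0.29 in siCTU2, BCL2L1 and BAX at 0.055 and 0.44 in pQ. At 3 h alone, for cycloheximide, they were BAX and BID at 0.13 and -0.066 in siCTU2, BAD at 0.0067 in siGL2, BID and BAD at 0.024 and 0.035 in mQ, BAK1 at -0.025 in pQ. At 5 h alone, for cycloheximide, they were BAD at 0.0044 in siCTU2, BID at 0.15 in siGL2, MCL1 and BCL2L11 at -0.083 and -0.22 in mQ, BAX at 0.0042 in pQ. With the 0 h difference between the arms subtracted, for cycloheximide, they were BAD at 0.076 in siCTU2, BCL2L11 and BID at -0.064 and 0.013 in siGL2, BCL2L11 at -0.21 in mQ, BID at 0.099 in pQ. In the TCHX arm at 0 h, for the 0 h difference, they were BAX at -0.045 in mQ minus pQ. In that arm without the library that stood apart, for the 0 h difference, they were BAX at -0.11 in mQ minus pQ. Without the library that stood apart, for cycloheximide, they were BAX and BID at 0.036 and -0.055 in siCTU2. Without the libraries that stood apart, for the difference in cycloheximide, they were MCL1 at 0.90 in mQ minus pQ. With each arm divided by its own 0 h library, for the TDD index, they were BAD at 0.12 in siCTU2 minus siGL2, MCL1 at -0.020 in mQ minus pQ. With genes stable at both times, for cycloheximide, they were BAX at 0.057 in siCTU2. Leaving out 1 replicate at a time gave ranges that cross 0 for 0 h levels BCL2L11 -0.27 to 0.013 (siCTU2), BID -0.076 to 0.044 (siCTU2), MCL1 -0.087 to 0.40 (mQ), BAD -0.18 to 0.11 (mQ). For decay it gave BAX -0.20 to 0.12 (siCTU2), BAD -0.15 to 0.10 (siCTU2), BCL2L1 -0.80 to 0.0015 (siGL2). For cycloheximide it gave BAX -0.42 to 0.42 (siCTU2), BID -0.28 to 0.44 (siCTU2), BAD -0.40 to 0.22 (siCTU2), BID -0.13 to 0.0034 (siGL2), BAD -0.12 to 0.022 (siGL2), BCL2L11 -0.40 to 0.54 (mQ), BID -0.57 to 0.013 (mQ), BAX -0.14 to 0.032 (pQ), BID -0.085 to 0.066 (pQ). For the difference in cycloheximide it gave BAX -0.72 to 0.20 (siCTU2), BID -0.28 to 0.53 (siCTU2), BAD -0.28 to 0.28 (siCTU2), MCL1 -0.84 to 1.05 (mQ), BCL2L11 -0.80 to 0.30 (mQ), BID -0.59 to 0.065 (mQ), BAD -0.044 to 0.27 (mQ). For the difference in decay it gave BCL2L11 -0.044 to 0.58 (mQ). For the TDD index it gave BAX -0.51 to 0.10 (siCTU2), BID -0.14 to 0.26 (siCTU2), BAD -0.14 to 0.18 (siCTU2), BCL2L11 -0.18 to 0.077 (mQ), BID -0.29 to 0.040 (mQ), BAD -0.046 to 0.15 (mQ).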

Other observations

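BCL2, which gives the family its name, was a minor transcript beside MCL1 in these cells, and is named here after its values were seen. In the T arm at 0 h it had 12.6 ± 2.42 CPM in siCTU2, 9.38 ± 1.38 CPM in siGL2, 9.18 ± 1.39 CPM in mQ and 8.73 ± 0.590 CPM in pQ (SD, n = 3). BCL2L10, a further anti-apoptotic member, had 0 counts in all 12 libraries. BOK, an effector related to BAX and BAK1, had 3.00 ± 0.586, 1.71 ± 0.549, 2.82 ± 0.334 and 1.95 ± 0.0944 CPM in the same order. BCL2L12, by contrast, had 115 ± 18.4, 104 ± 0.521, 102 ± 14.2 and 115 ± 5.06 CPM in the same order.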
